A study of Mus musculus with 10 samples.

Results

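Cytochrome P450 enzymes of families 1 to 4 were followed across mouse liver and MYC-driven liver tumour sections. Genes were taken by symbol, as every gene of the count matrices named Cyp with a family number of 1 to 4, a subfamily letter and a gene number, leaving out Cyp2e1, Cyp1a2, Cyp4a10 and Cyp4a14. Of 76 such genes among 31053 in the matrices, 47 reached 5 CPM (UMI counts scaled to a section total of 1000000) in at least 1 section, and these 47 are described here. All 47 belong to families 2, 3 and 4, since the remaining genes of family 1, Cyp1a1 and Cyp1b1, stayed at or under 1.31 and 3.14 CPM. The lowest gene inside that limit was Cyp2g1 at 7.08 CPM in its highest section, and the highest outside it was Cyp4f18 at 4.63 CPM.

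Expression was measured on 10 frozen sections from 7 tissues with 10x Genomics Visium slides, on which barcoded spots capture polyadenylated RNA and each molecule is counted by its unique molecular identifier (UMI). The labels name each tissue by an animal number and call all of them hepatoblastoma, so groups were taken as the tissues themselves. NEJ146 had 4 adjacent sections and NEJ634, NEJ638, NEJ654, NEJ677, NEJ687 and NEJ723 had 1 each. The study's text names NEJ634, NEJ687, NEJ723 and NEJ146 as ABC-Myc tumours and counts 3 healthy livers among the spatial samples, which by elimination would be NEJ638, NEJ654 and NEJ677. They are called the named tumours and the other 3 tissues, and values of the latter stand in the order NEJ638, NEJ654, NEJ677. In ABC-Myc mice, Alb-Cre, which is driven by albumin regulatory sequence in hepatocytes, removes a stop cassette in front of a CAG-driven human MYC on a C57BL/6J background, and littermates lacking one or both alleles served as normal controls in the study. Age, sex and genotype of the single animals are not in the labels, and the counts do not separate the human MYC transgene.

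P450 enzymes of these families are haem proteins of the endoplasmic reticulum membrane. They take electrons from the reductase Por, in part through cytochrome b5, and insert oxygen into drugs, toxins, steroids, bile acids and fatty acids, after which conjugating enzymes attach glucuronic acid, sulfate or glutathione. In adult liver they are products of mature hepatocytes, many are highest around the central vein of the lobule, and several mouse genes differ between females and males under the control of growth hormone.

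The sections held 39280329 to 117077925 UMIs over tissue, so that 3 UMIs, taken as the limit that a count of 0 allows, corresponded to 0.0256 to 0.0764 CPM. NEJ146 stands apart from the other tissues in handling: the labels give its material as total RNA, no position file of its own was used, its tissue spots were those with 8000 or more UMIs, and mitochondrial genes took 6.78 to 7.22% of its UMIs against 2.46 to 3.86% elsewhere. The labelled tissue was checked with marker genes. All 5 hepatocyte markers were detected in every tissue and their summed level was 20807 to 30959 CPM in the named tumours and 84024 to 117353 CPM in the other 3 tissues, whereas 4 markers of fetal hepatocytes summed to 3804 to 13628 CPM and 10.1 to 90.1 CPM. Erythroid markers summed to 921 to 9459 CPM in the named tumours and 96.5 to 252 CPM in the others, with Gata1 at 0 in NEJ638. Neutrophil lineage markers summed to 95.8 to 450 CPM and 1.84 to 6.68 CPM, with Mpo at 0 in NEJ654, and endothelium markers to 72.04 to 143 CPM and 165 to 196 CPM, while macrophage, stroma and bile duct markers overlapped. These marker levels move with the ordering of tissues used below, and their part in the results was not tested. Within a section, fewer hepatocytes and less RNA per hepatocyte cannot be told apart.

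Together the 47 genes made up 13528, 16166 and 15021 CPM in the other 3 tissues. They made up 4500 ± 755 CPM in NEJ146 (SD, n = 4 adjacent sections), 2427 CPM in NEJ687, 1706 CPM in NEJ634 and 834 CPM in NEJ723. The lowest of the other 3 tissues was thus 3.01-fold above the highest named tumour, and 5.57-fold above it without NEJ146. Counting error is small beside these differences, but the labels give no groups of animals and each tissue is 1 animal, so no test between tissues was made. NEJ146 had the highest level among the named tumours for 35 of the 47 genes, and NEJ723 had the lowest for 35. Relative to the mean of the other 3 tissues, the median gene was at 18.97% in NEJ146, 10.4% in NEJ687, 9.66% in NEJ634 and 2.08% in NEJ723.

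**Figure D1:**
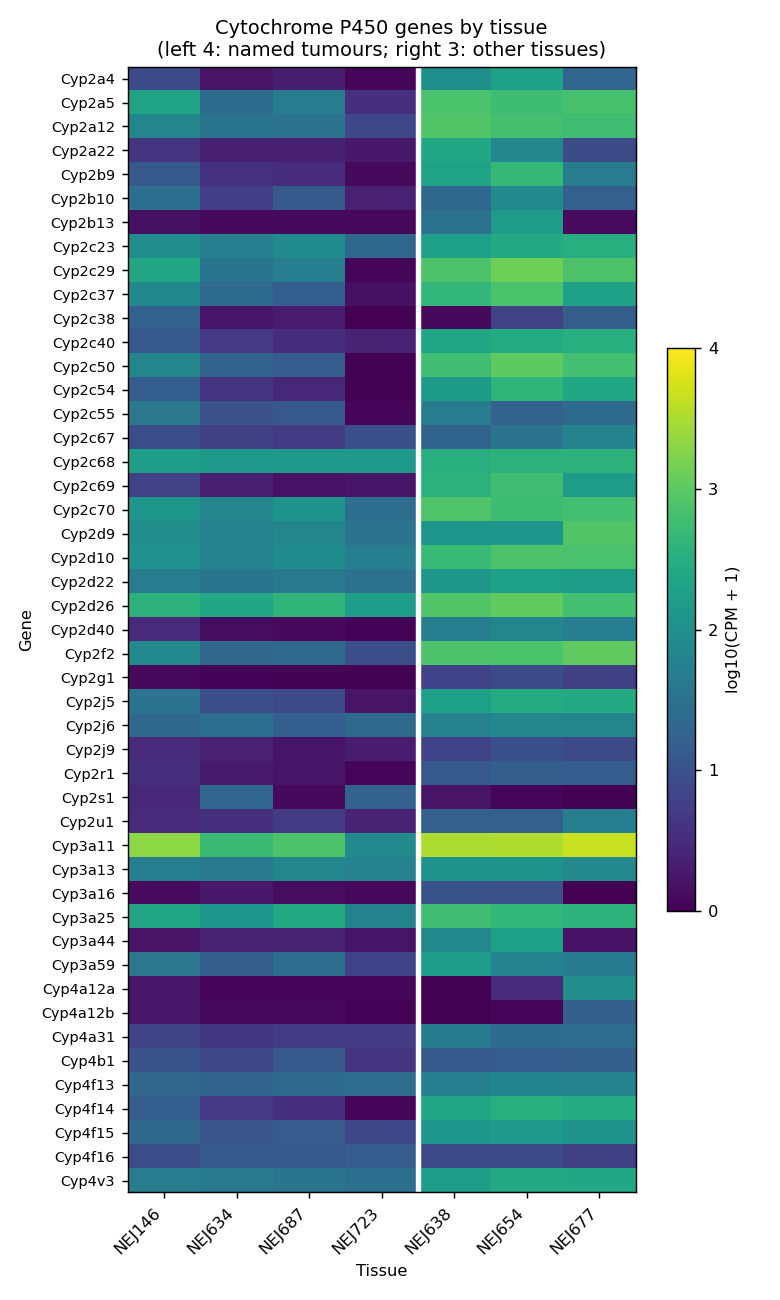
Level of each of the 47 P450 genes (rows, ordered by subfamily) in the 7 tissues (columns) as log10(CPM + 1), with NEJ146 as the mean of 4 sections. The 4 named tumours are darker than the 3 other tissues for most genes, NEJ723 most of all, while Cyp2c68 differs little on this scale and Cyp2s1 is brightest in NEJ634 and NEJ723.

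A gene was counted as lower without overlap when its highest named tumour lay at least 2-fold under the lowest of the other 3 tissues on the CPM + 1 scale. By this rule 26 of the 47 P450 genes were lower and 0 were higher. Of the lower genes, Cyp2d40, Cyp2g1, Cyp2j9, Cyp2r1 and Cyp2u1 reached 5 CPM only in the other 3 tissues. They thus entered the 47 through the group where they are high. Cyp2s1 in turn entered through NEJ634 and NEJ723 alone. Among all 11179 genes that reached 5 CPM in a section, 4.35% were lower and 9.41% were higher. The median difference between the named tumours and the other 3 tissues, as a difference of mean log2(CPM + 1), was -2.59 over the P450 genes and 0.44 over all genes. With library sizes scaled by the trimmed mean of M values (TMM), the medians were -2.96 and 0.02, and 30 P450 genes were lower. The shares of all genes above are those without this scaling. Since each sum covers 1 animal, these counts describe the 7 tissues and carry no p-value.

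The subfamilies were counted separately. All 3 Cyp2j genes, 8 of 12 Cyp2c genes, 3 of 4 Cyp2a genes and 3 of 5 Cyp2d genes were lower without overlap, and 0 of 6 Cyp3a genes. The count for Cyp3a includes Cyp3a16 and Cyp3a44, listed as female genes, of which NEJ677, the 1 of the other 3 tissues with Y-linked transcripts, had 0 and 0.560 CPM. NEJ687 and NEJ723, which also carried Y-linked transcripts, were not below it, at 0.366 and 0.206 CPM of Cyp3a16 and 1.46 and 0.665 CPM of Cyp3a44. Among the tissues with Xist, an RNA of X inactivation made in female cells, NEJ146 and NEJ634 had 0.302 and 0.902 CPM of Cyp3a16 against 9.44 and 8.78 CPM in NEJ638 and NEJ654, and 0.603 and 1.49 CPM of Cyp3a44 against 76.4 and 183 CPM. Summed over the subfamily and relative to the mean of the other 3 tissues, Cyp2a kept 18.98% in NEJ146 and 0.620% in NEJ723, and Cyp2c kept 19.7% and 4.60%. Cyp2d kept 30.1% in NEJ146, 29.3% in NEJ687, 19.1% in NEJ634 and 13.7% in NEJ723. Cyp3a kept 53.3% in NEJ146, 25.3% in NEJ687, 15.8% in NEJ634 and 4.49% in NEJ723.

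**Figure D2:**
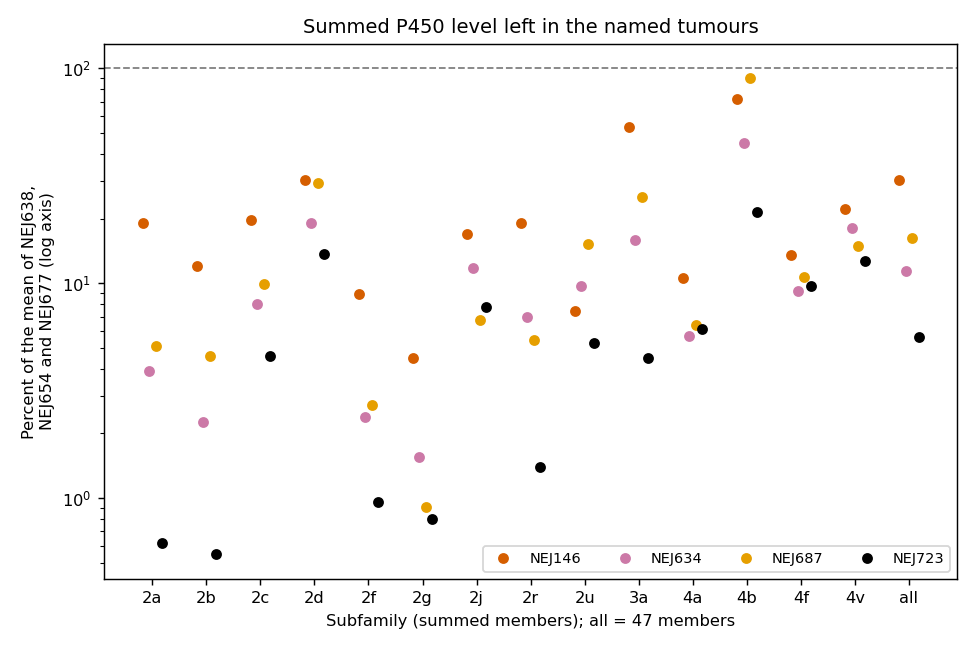
Summed level of each P450 subfamily in the 4 named tumours, as a percent of the mean of NEJ638, NEJ654 and NEJ677 (dashed line at 100%, log axis); Cyp2s1 is left out because it is near 0 in the other 3 tissues. NEJ146 is highest and NEJ723 lowest for the sum of all 47 genes, at 30.2% and 5.59%, and the points of Cyp2d lie closer together than those of Cyp2a and Cyp3a.

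Cyp2a enzymes hydroxylate coumarin and steroids. Cyp2a5, the mouse coumarin hydroxylase, was at 731, 568 and 688 CPM in the other 3 tissues, at 219 ± 43.5 CPM in NEJ146 (SD, n = 4 sections), at 46.6 CPM in NEJ687, 25.1 CPM in NEJ634 and 2.57 CPM in NEJ723. The groups did not overlap, and NEJ146 stood between the other named tumours and the rest. Cyp2a12 was at 602 to 825 CPM in the other 3 tissues and at 6.16 to 68.6 CPM in the named tumours. Cyp2a4 was at 96.8, 194 and 19.02 CPM in the other 3 tissues and at 0.115 to 6.83 CPM in the named tumours. Cyp2a22, at 7.10 CPM in NEJ677 against 3.07 CPM in NEJ146, fell just short of the 2-fold limit on the CPM + 1 scale, at 1.99-fold.

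Cyp2c genes were the largest subfamily, with 12 members. Cyp2c29, which oxidises drugs and arachidonic acid, was at 767, 1304 and 766 CPM in the other 3 tissues. It was at 254 ± 54.7 CPM in NEJ146, 50.9 CPM in NEJ687 and 35.2 CPM in NEJ634, and 5 UMIs (0.115 CPM, 95% exact Poisson interval 0.0372 to 0.267) were counted in NEJ723. The drop was thus steepest in NEJ723. Cyp2c50 and Cyp2c54 likewise had 3 and 2 UMIs in NEJ723 and 595 to 1031 CPM and 151 to 420 CPM in the other 3 tissues. The widest gap of all 47 genes was that of Cyp2c69, at 164 to 590 CPM in the other 3 tissues and 0.592 to 5.11 CPM in the named tumours, 27.0-fold between the nearest tissues. Of the 120-base windows in the last 500 bases of its annotated transcript 17.8% also occur in Cyp2c40 or Cyp2c67, so part of its reads could have been lost or swapped with these genes. Cyp2c70, which makes the muricholic acids of mouse bile, was at 582 to 802 CPM in the other 3 tissues and kept 26.8 CPM in NEJ723, 64.9 CPM in NEJ634, 115 CPM in NEJ687 and 129 CPM in NEJ146. Cyp2c37 was at 0.504 to 72.2 CPM in the named tumours and 189 to 742 CPM in the others, Cyp2c40 at 1.47 to 11.8 CPM and 225 to 333 CPM, and Cyp2c67 at 3.88 to 8.36 CPM and 18.2 to 60.7 CPM.

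Cyp2c68 varied little among the named tumours. It was at 326, 366 and 364 CPM in the other 3 tissues, at 142, 141 and 144 CPM in NEJ634, NEJ687 and NEJ723, and at 169 ± 8.53 CPM in NEJ146 (SD, n = 4). The groups did not overlap, but the gap of 1.92-fold stayed under the 2-fold limit. Of the same kind of windows, 22.3% of those of Cyp2c68 also occur in Cyp2c40, and 32.8% of those of Cyp2c40 in Cyp2c67, Cyp2c68 or Cyp2c69, so part of the reads could have been lost or swapped between these genes. Cyp2c23, an arachidonic acid epoxygenase outside the tandem group, also stayed under the limit, at 21.6 to 90.9 CPM in the named tumours and 180 to 319 CPM in the others.

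The ranges of Cyp2c38, Cyp2c55 and Cyp2b10 overlapped. Cyp2c38 was at 16.6 ± 3.85 CPM in NEJ146 (SD, n = 4) and at 0.254, 4.99 and 14.1 CPM in the other 3 tissues, and the remaining named tumours had at most 1.01 CPM. Cyp2c55 was at 36.98 ± 5.16 CPM in NEJ146 and 47.7, 17.2 and 23.7 CPM in the other 3 tissues. Cyp2b10, the phenobarbital-inducible target of the receptor CAR, was at 27.8 ± 3.95 CPM in NEJ146, at 20.3, 82.2 and 15.8 CPM in the other 3 tissues and at most 12.8 CPM in NEJ634, NEJ687 and NEJ723. For Cyp2c55 and Cyp2b10 the overlap came from NEJ146 alone, and for Cyp2c38 also from its low level in NEJ638.

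Cyp3a11, the main drug-oxidising P450 of mouse liver and counterpart of human CYP3A4, had the highest level of all 47 genes in every tissue but NEJ723. It was at 3205, 3348 and 4673 CPM in the other 3 tissues and at 2076 ± 402 CPM in NEJ146, where the sections held 2361, 2416, 1979 and 1547 CPM. NEJ687 had 773 CPM, NEJ634 530 CPM and NEJ723 77.9 CPM. The groups did not overlap, but the gap between NEJ146 and NEJ638 was 1.54-fold and so under the 2-fold limit. Cyp3a13 was at 40.8 to 67.01 CPM in the named tumours and 76.3 to 113 CPM in the others. Cyp3a25 was at 59.5 to 269 CPM and 369 to 599 CPM, and Cyp3a59 at 5.38 to 36.9 CPM and 45.9 to 159 CPM.

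Among the Cyp2d genes, Cyp2d26 had the highest level of all 47 genes in NEJ723, at 170 CPM, and was at 245, 371 and 411 CPM in NEJ634, NEJ146 and NEJ687 and 627 to 1050 CPM in the other 3 tissues. Cyp2d10 was at 50.5 to 106 CPM in the named tumours and 487 to 768 CPM in the others, and Cyp2d22, the counterpart of human CYP2D6, at 29.6 to 47.5 CPM and 128 to 183 CPM. Cyp2d40 was nearly lost, at 0.0917 to 1.99 CPM against 49.9 to 68.7 CPM. Cyp2f2, which activates naphthalene, was at 8.16 to 75.99 CPM in the named tumours and 727 to 1072 CPM in the others. The Cyp2j genes were lower too, with the arachidonic acid epoxygenase Cyp2j5 at 0.619 to 31.9 CPM and 178 to 292 CPM, Cyp2j6 at 14.5 to 28.4 CPM and 59.3 to 69.5 CPM and Cyp2j9 at 0.679 to 2.02 CPM and 5.35 to 8.47 CPM. Cyp2r1, a vitamin D hydroxylase, was at 0.183 to 2.50 CPM and 11.6 to 14.1 CPM, the fatty acid hydroxylase Cyp2u1 at 1.42 to 4.13 CPM and 15.7 to 49.5 CPM, and Cyp2g1, known from the nose, at 0.0458 to 0.256 CPM and 4.68 to 7.08 CPM. All of these but Cyp2d26 were lower without overlap by 2-fold.

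Family 4 enzymes hydroxylate the end of fatty acid chains. Cyp4f14, which acts on leukotriene B4, was at 248, 318 and 291 CPM in the other 3 tissues and at 14.7 ± 3.02, 3.54, 2.49 and 0.183 CPM in NEJ146, NEJ634, NEJ687 and NEJ723, a 15.9-fold gap. Cyp4f15 was at 6.48 to 21.5 CPM in the named tumours and 107 to 140 CPM in the others, Cyp4a31 at 3.41 to 5.55 CPM and 24.99 to 41.2 CPM, and Cyp4v3 at 28.3 to 49.3 CPM and 165 to 258 CPM. These were lower by 2-fold or more, with the limit that Cyp4v3 overlaps the annotated gene Gm45753. Cyp4f13, at 17.9 to 25.6 CPM against 51.4 to 62.2 CPM, fell just short of the limit on the CPM + 1 scale, at 1.97-fold. Cyp4b1 was at 2.93 to 12.2 CPM and 12.3 to 15.1 CPM, so that NEJ687 nearly reached the other tissues.

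The mean was higher in the named tumours for 2 genes. Cyp2s1, a P450 known mainly from epithelia outside the liver, was at 19.5 CPM in NEJ634 (95% exact Poisson interval 18.3 to 20.6) and 17.2 CPM in NEJ723 (16.0 to 18.5), but at 1.80 ± 0.716 CPM in NEJ146 (SD, n = 4), 0.244 CPM in NEJ687 and 0.0509 to 0.606 CPM in the other 3 tissues. It was thus high in 2 of the 4 named tumours, and NEJ687 lay inside the range of the other 3 tissues. Bile duct markers, as genes of another epithelium, summed to 495 CPM in NEJ634, 120.5 CPM in NEJ723, 74.0 CPM in NEJ687, 132 CPM in NEJ146 and 74.3 to 136 CPM in the other 3 tissues. Spp1 made up most of the sum in NEJ634, at 351 CPM, but was at 31.5 CPM in NEJ723, under the 66.2 to 121 CPM of the other 3 tissues. The epithelial markers Krt7, Krt19 and Epcam were above the other 3 tissues in both, at 41.6, 43.2 and 54.8 CPM in NEJ634 and 23.1, 6.07 and 58.8 CPM in NEJ723, against 0.738 to 2.93, 1.27 to 5.31 and 1.93 to 5.08 CPM. They were also above them in NEJ146, at 5.18, 7.14 and 7.27 CPM, but not in NEJ687. The bile duct list also holds Sox9, whose level is not given here, so Krt7, Krt19 and Epcam do not stand for the whole list. The part of other epithelial cells in the Cyp2s1 level was not tested. Cyp4f16 was at 11.6, 11.8, 13.8 and 7.70 ± 0.705 CPM in NEJ634, NEJ687, NEJ723 and NEJ146 and at 6.56, 6.64 and 4.68 CPM in the others. Its groups did not overlap, by 1.14-fold on the CPM + 1 scale between NEJ146 and NEJ654, and it was the 1 P450 gene higher without overlap at any gap.

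The genes listed as sex-biased in mouse liver split the other 3 tissues. Xist was at 46.8 and 49.5 CPM in NEJ638 and NEJ654 and at 0.0255 CPM in NEJ677, whereas 4 Y-linked genes summed to 88.3 CPM in NEJ677 and to 0.0977 and 0.235 CPM in NEJ638 and NEJ654. Of the listed female genes, Cyp2b13 was at 30.8, 157 and 0.305 CPM, Cyp3a44 at 76.4, 183 and 0.560 CPM and Cyp2b9 at 199, 454 and 46.1 CPM. Cyp3a16 was at 9.44 and 8.78 CPM in NEJ638 and NEJ654 and had 0 UMIs in NEJ677, which allows up to 0.0764 CPM. These 4 genes were thus lowest in the tissue with Y-linked transcripts. The listed male genes Cyp4a12a, which makes a hydroxylated arachidonic acid, Cyp4a12b and Cyp2d9, a testosterone hydroxylase, ran the other way, at 0.0391, 2.09 and 94.1 CPM, 0.0586, 0.141 and 15.1 CPM and 125, 126 and 818 CPM. Of the 120-base windows at the 3′ ends of Cyp4a12a and Cyp4a12b 24.7% are shared, so these 2 genes may have lost or exchanged reads. Cyp2c40, listed as female, went against its list at 225, 293 and 333 CPM. With 1 tissue carrying Y-linked transcripts among these 3, sex and animal cannot be told apart.

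In the named tumours the sums of both lists lay below those of the other 3 tissues. The 10 listed female genes summed to 65.1 CPM in NEJ146 and 15.4 CPM in NEJ634, which carried Xist, and to 21.1 CPM in NEJ687 and 5.04 CPM in NEJ723, which carried Y-linked transcripts; in the other 3 tissues they summed to 579 to 1963 CPM. The 3 listed male genes summed to 95.8, 56.5, 68.8 and 32.3 CPM in NEJ146, NEJ634, NEJ687 and NEJ723 and to 125, 129 and 927 CPM in NEJ638, NEJ654 and NEJ677. Nearly all of the male sum in the named tumours was Cyp2d9, at 32.0 to 94.1 CPM, and Cyp4a12a was at most 0.823 CPM in all 4. Cyp4a12a and Cyp4a12b were not below NEJ638, which had 0.0391 and 0.0586 CPM, less than each named tumour. Of the female list, Cyp2b9 was at 0.275 to 12.1 CPM, Cyp2b13 at 0.206 to 0.495 CPM, Cyp3a44 at 0.603 to 1.49 CPM and Cyp3a16 at 0.206 to 0.902 CPM in the named tumours.

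Genes that work with the P450 enzymes were measured beside them. Of 35 such genes with 5 CPM in a section, 14 were lower without overlap and 0 were higher, with a median difference of -1.60. Of all genes 4.35% were lower and 9.41% higher. Por, the reductase that feeds every microsomal P450, was at 273 to 666 CPM in the named tumours and 145 to 756 CPM in the other 3 tissues, so the ranges overlapped. Cyb5a, cytochrome b5, was at 458 to 914 CPM and 1883 to 2346 CPM. Nuclear receptors that induce P450 genes differed from each other: Nr1i2 (PXR) was at 39.0 to 51.4 CPM and 37.5 to 53.0 CPM, and Nr1i3 (CAR) was at 13.6 to 43.6 CPM and 104 to 202 CPM, lower without overlap. Hnf4a was at 123 to 178 CPM and 165 to 200 CPM, and Cebpa at 43.5 to 69.6 CPM and 176 to 187 CPM. Among the conjugating and hydrolysing enzymes, the carboxylesterase Ces3a had the widest gap, with 0.917 to 11.1 CPM against 934 to 2253 CPM, followed by the glucuronosyltransferase Ugt2b1 at 0.802 to 10.97 CPM against 156 to 214 CPM.

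Zonation was then measured in NEJ638, NEJ654 and NEJ677. Spots of each section were ranked on an axis of 6 pericentral genes (Glul, Oat, Slc1a2, Gulo, Cyp2e1, Cyp1a2) and 7 periportal genes (Hal, Sds, Hsd17b13, Ass1, Pck1, Arg1, Cps1), none of them among the 47, and cut into 3 zones of equal spot number. UMIs were summed per tissue and zone, and edgeR's quasi-likelihood test with tissue as a block compared the end zones over 12747 genes. Of the 46 P450 genes tested, 25 were higher in pericentral spots, 8 were higher in periportal spots and 13 did not pass an adjusted p of 0.05. Of all genes, 10.6% were called pericentral and 10.5% periportal. The median log2 fold change (pericentral over periportal) was 0.24 for the P450 genes and 0.00298 for all genes. The direction was the same in all 3 tissues for 23 of the 25 pericentral and 7 of the 8 periportal genes, which had been called on these same tissues. Some of these signs rest on values near 0. Pericentral and periportal spots had 0.105 and 0.0625 CPM of Cyp4a12b in NEJ638 and 0.303 and 0.379 CPM of Cyp2b13 in NEJ677. Pericentral zones had the highest median UMIs per spot in each tissue, 14530 against 11590 periportal in NEJ638, 18392 against 17253 in NEJ654 and 15823 against 14869 in NEJ677. Bile duct markers summed to 142 to 277 CPM in periportal and 23.7 to 56.2 CPM in pericentral zones. In each of the 3 tissues hepatocyte markers were lower in the pericentral than in the periportal zone (69502 to 96417 against 95716 to 136889 CPM), as were macrophage markers (202 to 337 against 235 to 468 CPM), and stroma (283 to 686 against 221 to 561 CPM) and endothelium markers (169 to 199 against 159 to 187 CPM) were higher. Of the 5 hepatocyte markers Cps1 is also a periportal gene of the axis, so the ranking itself enters the hepatocyte sum. The part of depth and of these cell types in the P450 differences was not tested, and since a spot covers several cells the zones are mixtures.

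**Figure D3:**
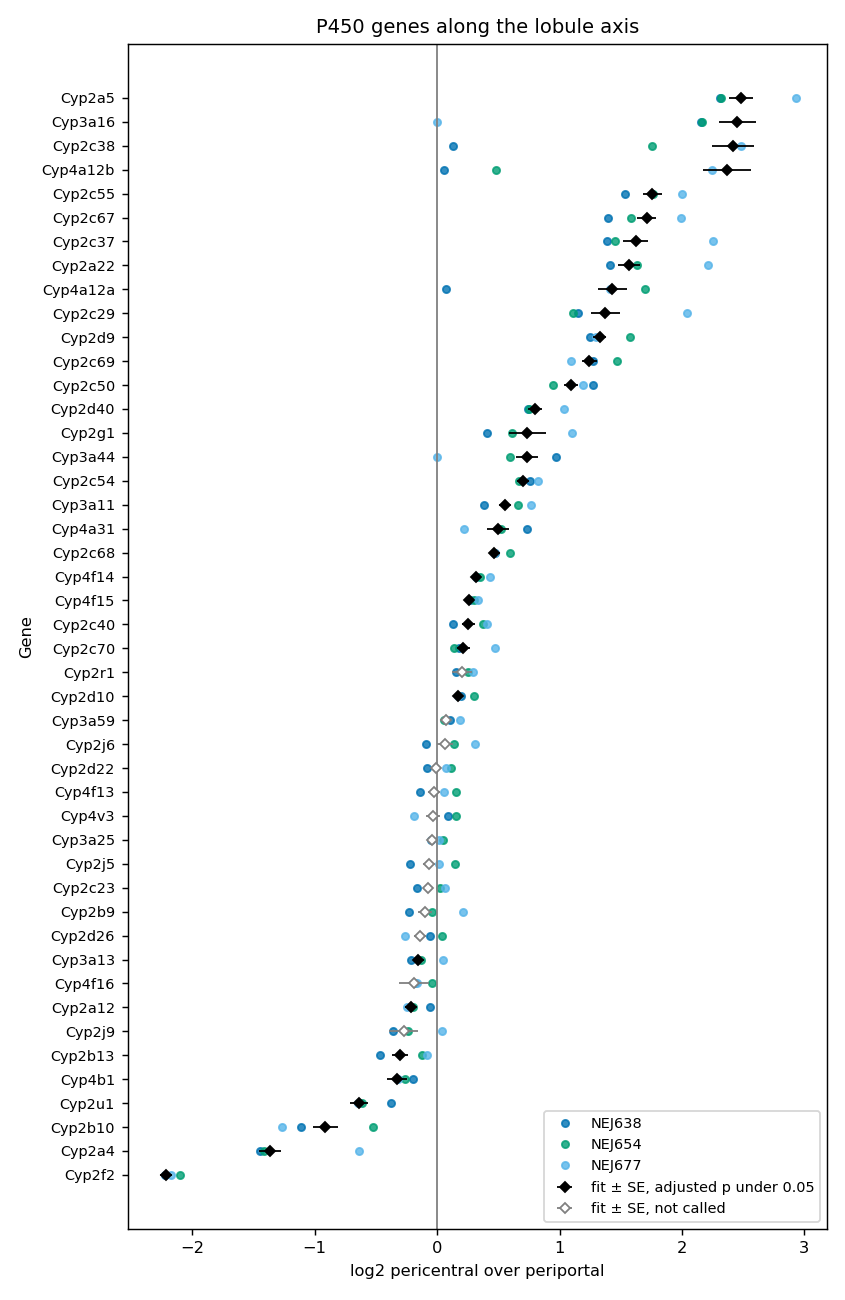
Log2 ratio of pericentral over periportal zones for 46 P450 genes. Coloured points are the 3 tissues on the log2(CPM + 1) scale and diamonds the fitted value ± SE, filled where the adjusted p was under 0.05; Cyp2a5 lies farthest to the pericentral side (2.48) and Cyp2f2 farthest to the periportal side (-2.22).

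Of the 25 pericentral genes 11 were from subfamily 2c, in which 12 were tested. Subfamilies 4a, 2d and 3a had 3 each, of 3, 5 and 6 tested. Cyp2a5 rose most, from 264, 208 and 195 CPM in periportal spots of NEJ638, NEJ654 and NEJ677 to 1318, 1039 and 1488 CPM in pericentral spots (log2 2.48 ± 0.0985 SE, adjusted p = 8.21e-11). Every pericentral value lay above every periportal one. Cyp2c37 rose by 1.62 ± 0.104 on the log2 scale, Cyp2c29 by 1.37 ± 0.117, Cyp2c67 by 1.71 ± 0.0787 and Cyp2c55 by 1.76 ± 0.0780. Cyp2c38 rose by 2.41 ± 0.172, and in NEJ638 it was at only 0.367 CPM in pericentral and 0.250 CPM in periportal spots. Cyp3a11 rose less, by 0.56 ± 0.0496, from 2777, 2618 and 3582 CPM to 3622, 4140 and 6115 CPM. Of the listed male genes Cyp2d9 rose by 1.33 ± 0.0542 and Cyp4a12a by 1.43 ± 0.120, and of the listed female genes Cyp3a16 rose by 2.45 ± 0.151 and Cyp2c69 by 1.24 ± 0.0599. Cyp3a16 was at 0 CPM in every zone of NEJ677, and Cyp4a12a was at 0.0524 CPM in pericentral and 0 CPM in periportal spots of NEJ638, so these changes rest on the other 2 tissues. All 3 listed male genes were called pericentral. The call of Cyp4a12b rests mainly on NEJ677, at 30.8 against 5.69 CPM, as it was at most 0.399 CPM in zones of NEJ638 and NEJ654. Of the 8 listed female genes among the 47, Cyp3a16, Cyp2c69, Cyp3a44 and Cyp2c40 were called pericentral, Cyp2a4, Cyp2b10 and Cyp2b13 periportal, and Cyp2b9 did not pass. Cyp3a44 was level in NEJ677, at 0.531 CPM in pericentral and in periportal spots.

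Periportal genes were fewer and came from several subfamilies. Cyp2f2 was at 1370, 1265 and 1803 CPM in periportal spots and 293, 294 and 399 CPM in pericentral spots of the 3 tissues (log2 -2.22 ± 0.0502 SE, adjusted p = 5.14e-13). Cyp2a4, a testosterone hydroxylase, was at 150, 274 and 22.7 CPM in periportal spots and 54.1, 103 and 14.3 CPM in pericentral spots (log2 -1.37 ± 0.0890, adjusted p = 2.08e-08). Both were higher in the periportal zone of each tissue. Cyp2b10 fell toward the central vein by 0.91 on the log2 scale and Cyp2u1 by 0.64. The remaining 4, Cyp4b1, Cyp2b13, Cyp2a12 and Cyp3a13, had log2 values from -0.32 to -0.15. Without NEJ654 5 periportal genes passed, as Cyp4b1, Cyp2a12 and Cyp3a13 did not, and Cyp3a13 was slightly higher in pericentral spots of NEJ677.

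Cyp2a4 and Cyp2a5 therefore ran in opposite directions along the lobule, while their sequences upstream of the start of transcription are nearly the same. The 250 bases before the RefSeq start (GRCm38.p6) lie at chr7:26306942-26307191 for Cyp2a4 and chr7:26835089-26835338 for Cyp2a5, both on the plus strand, and are shown 5′ to 3′ with capitals where the alignment of both differs.
Cyp2a4: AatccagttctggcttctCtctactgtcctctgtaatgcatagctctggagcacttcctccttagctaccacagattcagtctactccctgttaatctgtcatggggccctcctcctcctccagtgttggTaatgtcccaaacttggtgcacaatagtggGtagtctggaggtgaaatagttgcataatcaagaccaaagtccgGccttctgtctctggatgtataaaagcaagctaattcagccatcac
Cyp2a5: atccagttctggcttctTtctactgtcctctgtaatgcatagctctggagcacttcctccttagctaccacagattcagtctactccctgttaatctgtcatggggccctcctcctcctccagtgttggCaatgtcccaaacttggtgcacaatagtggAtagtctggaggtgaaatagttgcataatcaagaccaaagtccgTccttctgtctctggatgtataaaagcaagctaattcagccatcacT
The alignment was 97.6% identical, with 5 capitals in each sequence. The first base of Cyp2a4 and the last base of Cyp2a5 are capitals only because the windows are offset at their ends. Over whole transcripts identity was 84.8% with gaps counted, and the annotated transcripts are 1738 bases (Cyp2a4) and 2013 bases (Cyp2a5) long. Over the last 500 bases, where the reads of this 3′ assay lie, it was 29.9%. With unequal lengths these 2 stretches need not correspond, so this value does not measure how far the 3′ ends differ. Of the 120-base windows in the last 500 bases, 0.787% of those of Cyp2a4 occur in Cyp2a5 and 0 of Cyp2a5 occur in another P450 gene, so exact matches of this length were rare.

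**Figure D4:**
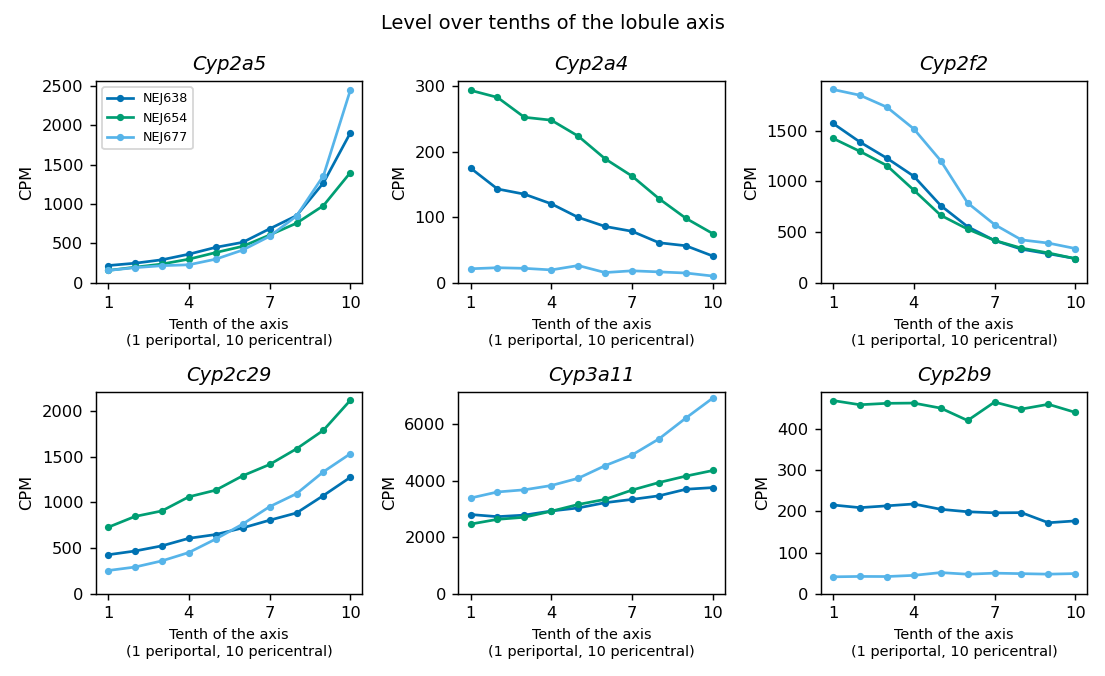
CPM of 6 P450 genes in 10 equal bins of spots along the lobule axis (1 periportal, 10 pericentral) in NEJ638, NEJ654 and NEJ677, genes chosen after their values were seen. Cyp2a5 climbs steeply in the last bins, Cyp2f2 falls over the whole axis, Cyp2a4 falls in NEJ638 and NEJ654 and is low throughout in NEJ677, and Cyp2b9 is nearly level in each tissue.

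Over 10 bins of the axis, Cyp2a5 was 8.65-, 8.85- and 15.5-fold higher in the most pericentral bin than in the most periportal one in NEJ638, NEJ654 and NEJ677, and reached 1904, 1400 and 2447 CPM there. Cyp2f2 was 6.55-, 5.96- and 5.62-fold higher in the most periportal bin. Cyp2c29 and Cyp3a11 climbed toward the central vein in each tissue, by 2.99-, 2.92- and 6.06-fold and by 1.34-, 1.77- and 2.05-fold. The middle zone was also set against the mean of both ends, which asks for a mid-lobular peak. There 0 of 46 P450 genes passed in either direction in edgeR's test and 0 in DESeq2 (13 had an unadjusted p under 0.05 in edgeR), and 0.141% and 0.118% of all genes were called higher in the middle and at the ends. Without NEJ677, Cyp3a44 passed as higher in the middle (as it did without NEJ638) and Cyp2a5 as higher at the ends.

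Female-listed Cyp2b9 and Cyp2b13 offered a second pair of neighbours. Both lie in the same chromosome 7 group of genes, and the 250 bases upstream of their RefSeq starts (chr7:26173159-26173408 and chr7:26061245-26061494, plus strand, GRCm38.p6) are 99.2% identical, with capitals at the 2 bases that differ.
Cyp2b9: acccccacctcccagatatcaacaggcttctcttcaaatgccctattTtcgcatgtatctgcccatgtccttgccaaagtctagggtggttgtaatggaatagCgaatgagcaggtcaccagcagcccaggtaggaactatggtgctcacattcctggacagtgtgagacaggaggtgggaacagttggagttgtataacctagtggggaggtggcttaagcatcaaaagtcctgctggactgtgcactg
Cyp2b13: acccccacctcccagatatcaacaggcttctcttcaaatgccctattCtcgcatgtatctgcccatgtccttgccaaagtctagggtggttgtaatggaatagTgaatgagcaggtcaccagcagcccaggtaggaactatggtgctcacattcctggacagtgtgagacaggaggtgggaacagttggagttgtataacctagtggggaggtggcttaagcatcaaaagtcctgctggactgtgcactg
Both genes were lowest in NEJ677, but Cyp2b9 kept 46.1 CPM there and Cyp2b13 0.305 CPM. Along the lobule Cyp2b9 was not called (log2 -0.10 ± 0.0551 SE) and Cyp2b13 was slightly periportal (-0.30 ± 0.0675).

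Of the partner genes, 35 were tested for zonation, and 24 were pericentral and 3 periportal, against 10.6% and 10.5% of all genes. Por was at 605, 136 and 96.4 CPM in periportal and 897, 247 and 206 CPM in pericentral spots of NEJ638, NEJ654 and NEJ677 (log2 0.78 ± 0.0624 SE, adjusted p = 2.33e-07). The receptor genes Ahr and Nr1i3 rose toward the central vein by 1.03 ± 0.0775 and 0.71 ± 0.0885 on the log2 scale, and the glutathione transferase Gstm1 by 1.01 ± 0.112. The periportal partners were Sult1a1 (-0.28), Cebpa (-0.15) and Hnf4a (-0.13).

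Zonation and loss in the named tumours were set side by side. Of the 25 pericentral P450 genes 15 were lower without overlap in the named tumours, of the 8 periportal ones 4, and of the 13 that were not called 7. The median difference in log2(CPM + 1) was -3.20, -3.34 and -2.07 in these 3 classes. Lower genes were thus found in all 3 classes, and the difference between classes was not tested. Of all genes, whatever their zonation, 4.35% were lower.

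NEJ146, with 4 sections, allowed regions within 1 tumour to be compared. Its tissue spots were ranked by the share of UMIs from Cyp2e1 and Cyp1a2, P450 genes that are not among the 47, and the 25% of spots at either end of each section were summed as Cyp2e1-rich and Cyp2e1-poor spots and compared with edgeR's quasi-likelihood test, with section as a block. In sections 1 and 4, 1422 and 1617 spots had no UMI of either gene, more than the 1114 and 1043 taken as poor, so that the choice among them followed barcode order. Of the 47 genes, 42 were higher in the rich spots, 2 were lower and 3 (Cyp3a16, Cyp3a44, Cyp4f16) did not pass. Of all 13649 genes tested, 33.3% were higher in rich spots and 34.8% higher in poor spots. The median log2 fold change (rich over poor) was 2.20 for the P450 genes and -0.01 for all genes. The p-values measure the spread between adjacent sections of 1 tumour only. The rich spots had more UMIs (medians of 21311 to 25462 against 14148 to 19326), more hepatocyte marker RNA (23261 to 31251 against 13028 to 17556 CPM), more bile duct (170.0 to 203 against 42.3 to 82.1 CPM), stroma (759 to 851 against 285 to 427 CPM) and endothelium marker RNA (136 to 163 against 103 to 115 CPM). They had less of the fetal hepatocyte (5624 to 6135 against 8945 to 10254 CPM), erythroid (3470 to 3985 against 11272 to 17514 CPM) and neutrophil markers (42.1 to 57.7 against 78.8 to 139 CPM). The proliferation gene Mki67 was at 49.8 to 61.1 CPM in rich and 97.3 to 115 CPM in poor spots. Macrophage markers were lower in the rich spots of every section, at 691, 621, 611 and 479 CPM against 866, 821, 788 and 642 CPM in sections 1 to 4. The part of these in the P450 differences was not tested.

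Cyp3a11 was at 5489, 5248, 4839 and 3990 CPM in the rich spots of sections 1 to 4 and at 463, 574, 440 and 379 CPM in the poor spots (log2 3.46 ± 0.0461 SE, adjusted p = 1.53e-17). The rich spots thus overlapped the 3205 to 4673 CPM of whole sections of NEJ638, NEJ654 and NEJ677, and the poor spots lay between the whole sections of NEJ723 and NEJ687. Cyp2a5 was at 656, 636, 651 and 491 CPM in rich and 27.6, 29.8, 21.2 and 13.1 CPM in poor spots (log2 4.81 ± 0.0859). Other wide differences on the log2 scale were those of Cyp2d40 (4.83 ± 0.224), Cyp2a4 (4.74 ± 0.129), Cyp2c50 (4.68 ± 0.0649) and Cyp2c54 (4.42 ± 0.0862). Cyp2d40 was at 4.05 to 5.92 CPM in rich and 0.0572 to 0.321 CPM in poor spots, so its value rests on few UMIs. Cyp2a4 was also low, at 15.0 to 17.1 CPM and 0.445 to 0.918 CPM. Cyp2f2, the most periportal gene of the 3 tissues above, was at 181, 158, 167 and 104 CPM in rich and 14.9, 24.2, 15.3 and 10.4 CPM in poor spots (log2 3.29 ± 0.0954). Genes that opposed each other along the lobule, such as Cyp2a5 on one side and Cyp2a4 and Cyp2f2 on the other, were therefore higher in the same regions of NEJ146.

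**Figure D5:**
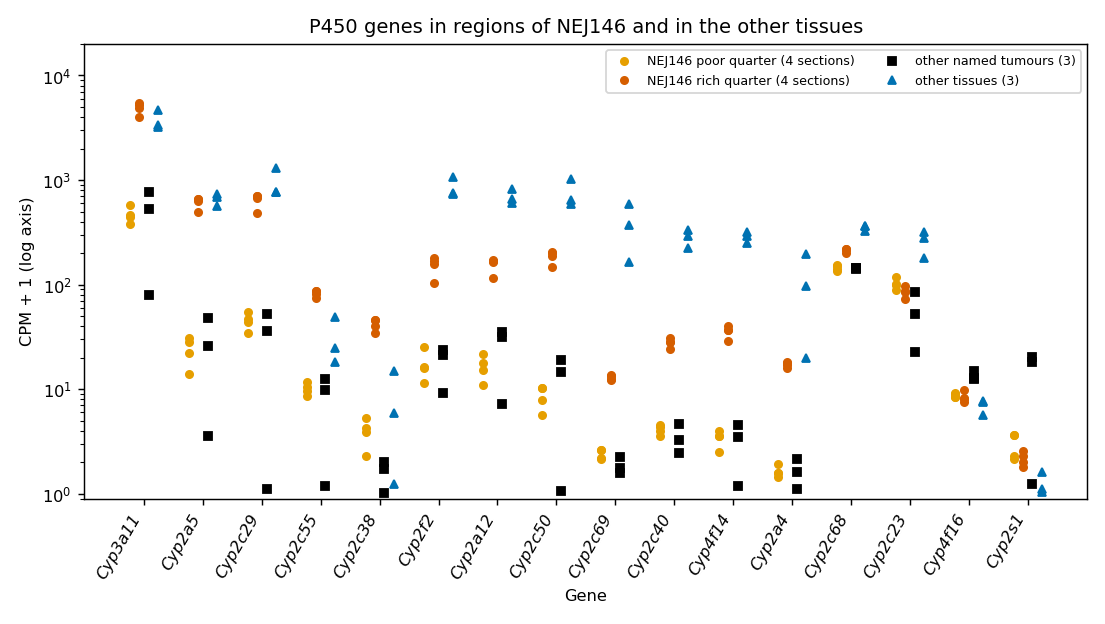
CPM + 1 (log axis) of 16 P450 genes in the Cyp2e1-poor and Cyp2e1-rich spots of the 4 NEJ146 sections, in the 3 other named tumours and in NEJ638, NEJ654 and NEJ677, each point 1 section or tissue; genes were chosen after their values were seen. The rich spots meet or pass the whole-section values of the other tissues for Cyp3a11, Cyp2a5, Cyp2c55 and Cyp2c38 and stay below them for Cyp2f2, Cyp2c69, Cyp2c40 and Cyp4f14.

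Even in the rich spots most genes stayed under the whole-section level of the other 3 tissues. For 31 of 47 genes all 4 rich values lay below all 3 tissues, for 13 they overlapped, and for 3, Cyp2c38, Cyp2c55 and Cyp2s1, they lay above. Of all 11179 genes at the minimum level 25.4% lay below and 39.4% above. Cyp2c38 was at 33.2 to 44.8 CPM in rich spots and at most 14.1 CPM in those tissues, and Cyp2c55 at 73.1 to 86.5 CPM and at most 47.7 CPM. By contrast Cyp2c69 was at 11.4 to 12.6 CPM in rich spots against 164 to 590 CPM, Cyp2c40 at 23.3 to 29.7 CPM against 225 to 333 CPM, and Cyp4f14 at 28.1 to 39.3 CPM against 248 to 318 CPM. The tissue values cover whole sections, periportal spots included, whereas the rich spots are 25% of a section. In pericentral zones Cyp2c38 was at 0.367, 9.12 and 29.6 CPM and Cyp2c55 at 73.2, 28.7 and 42.5 CPM. There Cyp3a11 was at 3622, 4140 and 6115 CPM. Cyp2a5 was at 1318, 1039 and 1488 CPM there, above every rich value. The mean of the poor spots lay within the range of NEJ634, NEJ687 and NEJ723 for 33 of 47 genes, above it for 7 and below it for 7, and for 34.2%, 8.05% and 57.8% of all genes.

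The pair of genes higher in poor spots was Cyp2c23 and Cyp2s1. Cyp2c23 was at 116, 97.7, 101 and 88.5 CPM in poor and 95.1, 84.98, 86.00 and 71.8 CPM in rich spots of sections 1 to 4 (log2 -0.20 ± 0.0345 SE, adjusted p = 0.000105), lower in the rich spots of every section. Cyp2s1 was at 1.14, 2.62, 2.63 and 1.304 CPM in poor and 0.825, 1.03, 1.32 and 1.57 CPM in rich spots of sections 1 to 4 (log2 -0.68 ± 0.218, adjusted p = 0.0123), lower in the rich spots of sections 1 to 3 and higher in those of section 4. Its call was lost without section 2 and without section 3, with adjusted p-values of 0.103 and 0.120. Of 35 partner genes 31 were higher in rich spots, against 33.3% of all genes. Ppara was lower (-0.39 ± 0.142), while Hnf4a did not pass (0.06 ± 0.0347).

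The spatial order of the genes was described by Moran's I, which is near 0 for a random arrangement of values over adjacent spots and approaches 1 for smooth regions. Over P450 genes with 20 CPM or more, the median was 0.234, 0.244, 0.329 and 0.293 in NEJ146 sections 1 to 4 and 0.240 in NEJ634, against 0.0260 to 0.0339 and 0.0253 for all genes at that level. It was 0.0997, 0.0661 and 0.178 in NEJ638, NEJ654 and NEJ677, 0.126 in NEJ687 and 0.0766 in NEJ723, where all genes had 0.0732. The median P450 gene was thus above the median of all genes in every section, by least in NEJ723, where 7 of 13 genes were above it and where the order turned with spots within 2 steps (0.0632 against 0.0688). Cyp3a11 reached 0.817 to 0.845 in NEJ146, 0.605 in NEJ634, 0.308 to 0.387 in NEJ638, NEJ654, NEJ677 and NEJ687 and 0.202 in NEJ723. Cyp2c68 stayed at 0.0849 to 0.118 in NEJ146. Spots of NEJ146 were placed by barcode, with the positions given for the other tissues. Moran's I can depend on the level of a gene and the depth of spots, so these values describe each section.

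Most of the genes lie in tandem groups (GENCODE annotation of GRCm38). There were 11 Cyp2c genes at chr19:39007019-40187333, 10 genes of subfamilies 2a, 2b, 2f, 2g and 2s at chr7:25802475-27133660, 5 Cyp3a genes at chr5:145436309-146113287, 5 Cyp2d genes at chr15:82370527-82794294 and 4 Cyp4f genes at chr17:32536558-32947402. All 11 genes of the Cyp2c group were called pericentral, whereas the chromosome 7 group held both Cyp2a5 and Cyp2f2, the genes farthest to the pericentral and to the periportal side.

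Promoter windows of 250 bases before the RefSeq start were found for 39 of the 47 genes, the others being Cyp2c23, Cyp2c54, Cyp2d22, Cyp2g1, Cyp2u1, Cyp4a12a, Cyp4a12b and Cyp4a31. Short motifs of liver factors were searched on both strands. The core CAAAGTCCA of the HNF4 site was in 7 of the 39 genes (17.9%) and in 0.451% of 27025 genes with such a window. The TATA box letters TATAAA, counted at any position of the window, were in 43.6% and 14.3%. The TCF core CTTTGAT was in 2.56% and 3.72%, and the STAT5 site TTCNNNGAA in 5.13% and 8.13%. The 7 genes with the HNF4 core lie in 2 tandem groups, and duplicated genes can share a promoter by descent. The core is shown in capitals with 10 bases on either side, on the strand of the gene.
Cyp3a11: aagagagtacCAAAGTCCAgtgatgcaaa
Cyp2c40: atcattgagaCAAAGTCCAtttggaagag
Cyp2c67: atcattgagaCAAAGTCCAtttggaagca
Cyp2c68: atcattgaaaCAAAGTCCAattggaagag
Cyp2c69: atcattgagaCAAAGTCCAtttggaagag
Cyp2c70: aggtcaaactCAAAGTCCAaactctgtgt
Cyp3a16: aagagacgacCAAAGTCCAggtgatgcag
The surroundings of the core were nearly alike in Cyp2c40, Cyp2c67, Cyp2c68 and Cyp2c69, and its distance to the start ran from -45 in Cyp2c40 to -125 in Cyp2c67. These 4 genes behaved differently in the sections: Cyp2c69 had the widest gap between the named tumours and the other 3 tissues and Cyp2c68 one under 2-fold. The whole window of Cyp3a11 (chr5:145879855-145880104, minus strand, GRCm38.p6), the gene with the highest level, is shown with the core in capitals.
Cyp3a11: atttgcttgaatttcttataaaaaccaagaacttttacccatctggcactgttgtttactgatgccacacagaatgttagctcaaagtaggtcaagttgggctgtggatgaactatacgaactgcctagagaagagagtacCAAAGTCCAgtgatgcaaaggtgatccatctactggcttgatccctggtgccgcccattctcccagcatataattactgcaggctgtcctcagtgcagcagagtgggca
A match to these letters is a description of the sequence, and whether a factor bound there was not measured.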

How the data were processed

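Deposited values are UMI counts by gene and barcode, not normalised, in 1 matrix for each of 10 sections. Per the labels' processing notes, Space Ranger 1.3 with mm10 was used for the tissues with 1 section and Cell Ranger 6.0 for NEJ146, while the study's methods name another Space Ranger version. Such software counts reads that map to 1 gene, so genes with near-identical 3′ ends can lose or swap counts.

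Tissue spots came from the position files, or for NEJ146 from a minimum of 8000 UMIs per spot, so its tissue area is uncertain. No other spots were left out except for the zones below, and doublets were not called since a spot holds several cells. UMIs were summed per section and scaled to CPM. Levels of 1-section tissues carry exact Poisson 95% intervals, which cover counting error only, and NEJ146 the SD over its sections, which covers sectioning and library preparation of 1 tumour. Gaps between tissues used a pseudocount of 1 CPM.

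Zones were 3 equal groups of spots with 1000 or more UMIs by the mean z score of log UMIs per 10000 of pericentral minus periportal genes. Summed counts were tested with edgeR 4.0.16 (quasi-likelihood, TMM, filterByExpr, Benjamini-Hochberg adjustment over all genes tested) in R 4.3.3, with DESeq2 1.42.0 as an alternative. The fits were tested on simulated data. Tables used pandas 2.3.3, numpy 2.4.6 and Biopython 1.88. Of the gene identifiers, 30934 of 31053 were found in GENCODE M21. Barcodes mark slide positions, so the 4989 of 4992 found in all sections are no shared cells.

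Named genes were those with 100 CPM or more in a tissue, the 6 widest changes in each direction of a comparison among genes with 20 CPM or more, the sex-biased list, genes higher in a named tumour, and the 4 widest changes of partner genes; others are given as examples. Of the 35 partner genes 1, and 1 of the promoter motifs searched, are not reported here. The P450 genes, gene lists and tests were chosen with earlier results of these data known. Alternatives were other UMI minimums, library sizes, pseudocounts, gap sizes, axes, cuts, tools and leaving out each tissue or section.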

Additional observations from a re-analysis of the deposited data

Results flagged for a closer look

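Along the lobule Cyp2b9 had opposite directions in 2 tissues, with a log2 ratio of pericentral over periportal spots of -0.23 in NEJ638 and 0.21 in NEJ677. It was picked out because both values were at least 0.2 in size at 20 CPM or more, and the difference between the tissues was not tested. No P450 gene had a NEJ146 section far from the other 3 by Dixon's criterion for 4 values, among 47 genes examined.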

How the results depend on the processing

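The count of P450 genes lower in the named tumours was 22 to 30 in all alternatives but the size of the gap: 37 genes were lower at any gap and 13 at a 4-fold gap. Leaving out 1 tissue or 1 NEJ146 section gave 25 to 30. The count higher was 1 in place of 0 at any gap (Cyp4f16), and 1 with library sizes that leave out abundant genes and 1 with a minimum of 1 CPM, where Cyp4f18 entered. The shares of all genes given above, 4.35% lower and 9.41% higher, hold for the main 2-fold setting alone. These alternative counts are therefore not set against all genes. The summed level of the lowest other tissue over the highest named tumour was 3.01-fold, 2.79 to 5.57 when 1 section or tissue was left out, and 5.57-fold when NEJ146 was represented by its Cyp2e1-poor spots, an alternative chosen after seeing the data, which gave 29 lower genes. Pericentral P450 genes numbered 23 to 26 in all alternatives. Periportal ones numbered 8, 5 with DESeq2, and 5 to 8 when 1 tissue was left out. Of the 33 zonation calls 26 held in every alternative, and the 7 that did not were Cyp2a12, Cyp2b13, Cyp2c40, Cyp2c70, Cyp2d10, Cyp3a13 and Cyp4b1. Leaving out a tissue gave 0 to 1 gene higher in the middle and 0 to 1 at the ends. In NEJ146, 42 to 43 genes were higher in rich spots, and 1 gene in place of 2 was lower with DESeq2 and with ranking by Cyp2e1 alone, and 1 to 2 when a section was left out; Cyp2s1 was the call lost. Median Moran's I in NEJ634 fell from 0.240 to 0.193 with spots within 2 steps. No call changed direction. The causes of these shifts were not tested.

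Each tissue is 1 animal and the ordering of tissues comes from the study's text, so no statement extends to animals in general. NEJ146 differs in handling from the other tissues. Genes with few UMIs in NEJ723 have wide counting intervals. No paired analysis was possible because the replicate numbers of the labels only number the sections of NEJ146 and pair no tissues, while zones and regions of the same section were compared with tissue or section as a block.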
